A study of Mus musculus with 6 samples.

Results

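The subject is a set of 39 nuclear genes for subunits of the mitochondrial respiratory chain, measured in mouse liver. The members are the genes on a list of subunits by symbol, made up of 21 genes of complex I, 4 of complex II, 6 of complex III, the electron carrier cytochrome c (Cycs) and 7 of complex IV, and each was read through the probe of highest mean signal among those matched to the gene. They are 39 of 21059 genes and transcripts tested, and all 39 were well above background on all 6 arrays. The set holds no subunit of complex V, the ATP synthase, so 18 genes of that complex were described beside it. RNA came from livers of mice aged 5 weeks, 3 in which small Maf had been knocked out in the liver alone (sMaf CKO) and 3 control wild type, all of mixed strain background (129Sv/J with C57BL/6J and ICR). Small Maf proteins are bZIP factors that pair with CNC and Bach factors on DNA. The labels give neither the small Maf genes that were deleted, nor the driver of the deletion, nor the sex of the mice or whether a sample pools animals, so the p-values measure the spread between these samples.

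The respiratory chain passes electrons from NADH (complex I) and from succinate (complex II) through ubiquinone, complex III, cytochrome c and complex IV to oxygen, and the proton gradient it builds drives the ATP synthase. Most subunits are encoded in the nucleus and imported, while a few core subunits of complexes I, III, IV and V come from mitochondrial DNA. Complex II has no subunit from mitochondrial DNA and is at the same time an enzyme of the citric acid cycle. In liver the chain takes up electrons from fatty acid oxidation and pays for gluconeogenesis and urea synthesis.

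Each array was one-colour, and levels are log2 signals minus the 75th percentile of the array, so 0 is the signal at that percentile and a difference of 1 is a doubling. The 75th percentile lay at a signal of 960.5, 668.0 and 484.4 on sMaf CKO arrays 1, 2 and 3, and at 581.2, 609.3 and 483.4 on control arrays 1, 2 and 3. The share of probes well above background ranged over the arrays from 58.0% to 73.6%. Arrays 1 and 2 of both genotypes shared slide 1 and array 3 of both lay on slide 2, so a value within slide 2 sets 1 array against 1. Of the 3 small Maf genes, Mafg read -2.97, -4.36 and -0.76 on sMaf CKO arrays, against 1.88, 1.87 and 2.23 on control arrays (difference -4.69, SE 0.79, limma adjusted p = 0.0533, or 0.0207 with slide as a block), while Maff differed by 0.15 and Mafk by 0.21 with arrays that overlapped. All 12 tested markers of hepatocytes were well above background on every array, and 10 of them lay in the brightest of 10 groups by level.

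Array 1 of the sMaf CKO group stood apart from the others in bright genes. All genes tested were ordered by mean level into 10 groups of like size, and the brightest (2106 genes) had a median difference from the control mean of -0.56 on that array, -0.18 on sMaf CKO array 2 and 0.03 on sMaf CKO array 3, against 0.13, -0.19 and 0.07 on control arrays 1, 2 and 3. In group 5 of the 10, near the middle, the same medians were 0.10, 0.03 and 0.07, against -0.02, 0.05 and 0.00. Of the 39 members, 36 belonged to the brightest group. Ndufa10 and Ndufb5 lay in group 9 and Ndufs8 in group 8. Medians of the members and of each complex are therefore also given without sMaf CKO array 1. Most single genes are given with all 6 arrays only. Without that array the medians of complexes I, III and V were -0.04, -0.13 and -0.06. The part of brightness in the results was not tested.

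**Figure D1:**
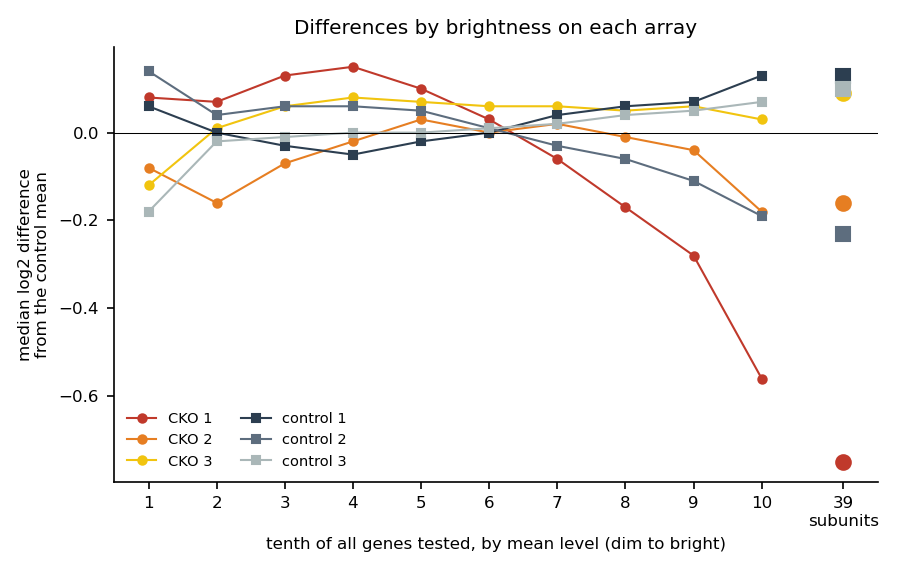
Median log2 difference from the control mean (y axis) on each of the 6 arrays for all genes tested, split into 10 groups by mean level (x axis, dim to bright; circles sMaf CKO, squares control), with the median of the 39 subunit genes at the right. On sMaf CKO array 1 the medians lay at -0.56 in the brightest group and -0.75 over the 39 subunits, while control array 2 lay at -0.19 and -0.23.

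No subunit gene passed limma's test over all genes. After Benjamini-Hochberg adjustment, with a threshold of 0.05, 0 of 39 members were called in either direction, where 0.541% of all genes tested were called, 0.157% as lower and 0.385% as higher. At an unadjusted p under 0.05 there were 3 members, all lower in sMaf CKO liver, as were 8.1% of all genes tested and 15.4% of the brightest group. The smallest adjusted p among the members was 0.151, in Sdha. The 95% intervals of the differences reached a median of 0.65 to either side, so differences of that size were not detectable in most members. Signed counts use 2 decimals. By these, 36 members had a negative difference, 2 (Ndufs4 and Cox7a2) a positive one and Cycs one of 0.00, around a median of -0.28. Over all genes tested 54.3% were negative around a median of -0.05, and over the brightest group 76.2% around -0.25. The median of the members had the opposite sign under quantile normalization (0.03) and on spike-in scaling (0.05, where the median of all genes was 0.27), and was -0.02 without sMaf CKO array 1.

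**Figure D2:**
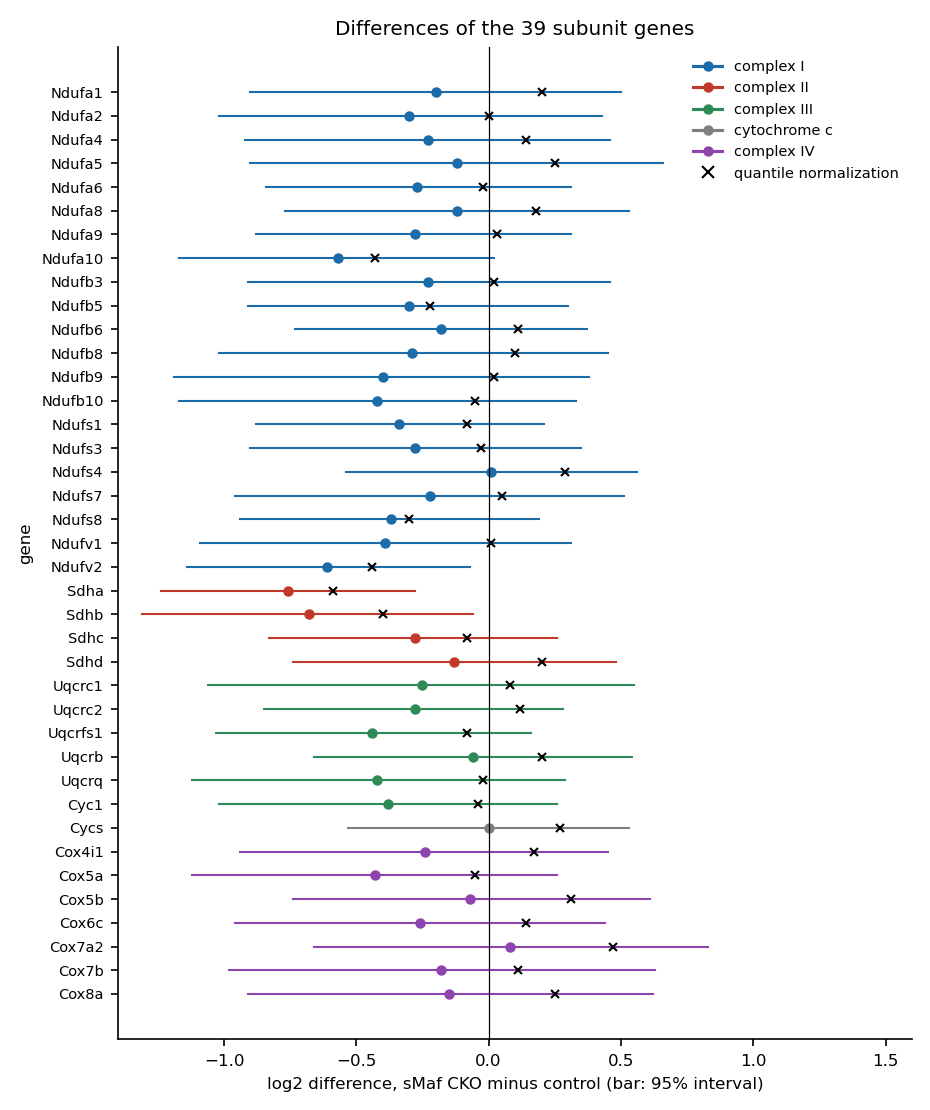
Log2 difference (x axis, sMaf CKO minus control) of the 39 subunit genes (y axis), with the 95% interval from limma as a bar and the difference under quantile normalization as a cross. The points lie between -0.76 in Sdha and 0.08 in Cox7a2, and 3 intervals (Sdha, Sdhb and Ndufv2) lie below 0. Under quantile normalization 15 members were negative.

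The lowest array was shared by nearly every member, the highest was not. The level was lowest on sMaf CKO array 1 in 38 of 39 members, the exception being Ndufa10. The highest level lay on control array 1 in 17 members and on sMaf CKO array 3 in 13. On control array 2 no member was highest. Averaged over the members, the difference from the control mean was -0.72, -0.17 and 0.04 on sMaf CKO arrays 1, 2 and 3, and 0.11, -0.21 and 0.10 on control arrays 1, 2 and 3, so the genotypes overlapped, with control array 2 below sMaf CKO arrays 2 and 3. Within slide 1 all 39 members had a negative difference (median -0.38), and within slide 2 17 did (median 0.00). Levels differed more among sMaf CKO arrays than among control arrays in 35 of 39 members. As a rank among all genes tested on its own array, the median member stood at the 96.3, 97.1 and 96.9 percentile on sMaf CKO arrays and at the 96.4, 96.6 and 96.5 percentile on control arrays.

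**Figure D3:**
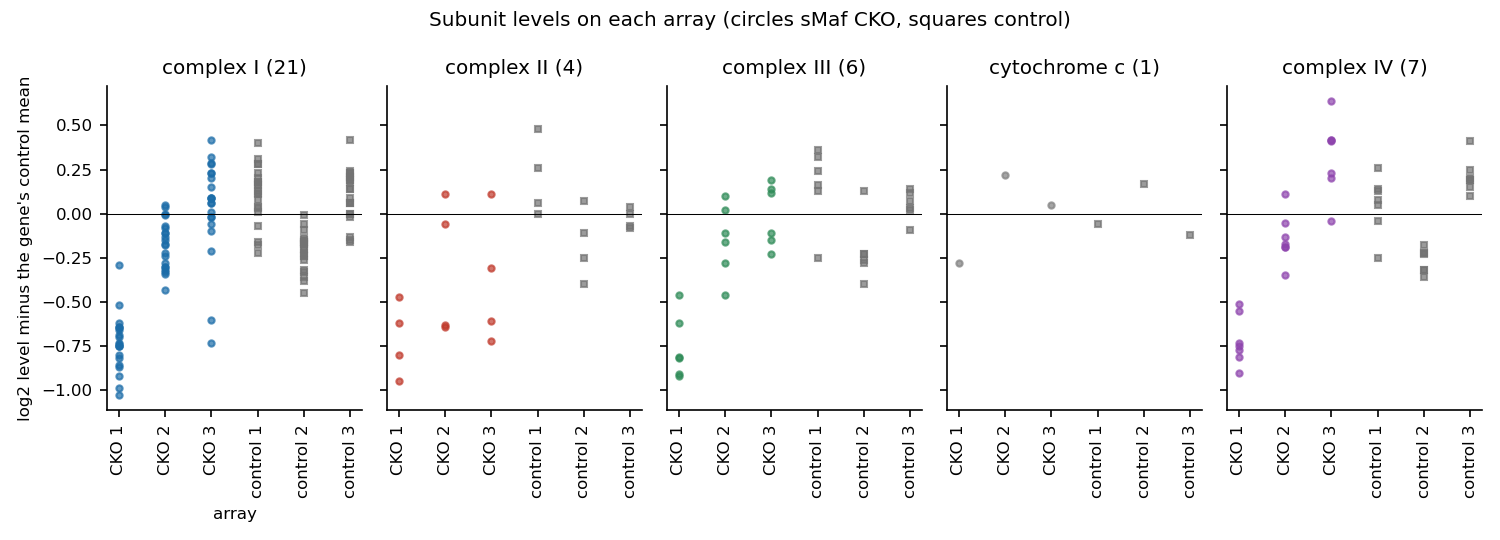
Log2 level minus the control mean of the gene (y axis) on each array (x axis), 1 point a gene, in a panel for each complex with its number of genes (circles sMaf CKO, squares control). Points on sMaf CKO array 1 lie below 0 in every panel, while on sMaf CKO array 3 the 7 genes of complex IV averaged 0.33 and the 4 of complex II -0.38.

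In 4 of 39 members, Sdha, Sdhb, Ndufv2 and Ndufa10, every sMaf CKO array was lower than every control array, as in 11.6% of all genes tested and 18.9% of the brightest group (22.9% of all genes tested did not overlap in 1 direction or the other). Under quantile normalization the same 4 genes did so, while Ndufs4, Cox5b and Cox7a2 did the opposite, and on spike-in scaling none of the 4 did and Cox7a2 alone was higher without overlap. A count of 4 in 39 is no larger a share than that of all genes tested. The promoter windows of these 4 genes are printed as a description, and no level given below depends on them. Each runs from 250 bases before to 50 after the RefSeq gene start in build GRCm38.p6, 5′ to 3′ on the strand of the gene. Capitals mark matches to 4 motifs searched on both strands, which can overlap one another: the palindromic GC-rich motif of nuclear respiratory factor 1 (a factor of respiratory chain genes that is not the CNC factor also called NRF1), CCGGAAG (ETS factors such as GABP), TCAAGGTCA (ERR nuclear receptors) and TGACNNNGC (the core of the antioxidant response element, which CNC and small Maf partners can bind). Sdha is at chr13:74350191-74350490 on the minus strand, Sdhb at chr4:140961021-140961320 on the plus strand, Ndufv2 at chr17:66101510-66101809 on the minus strand and Ndufa10 at chr1:92473709-92474008 on the minus strand.
Sdha: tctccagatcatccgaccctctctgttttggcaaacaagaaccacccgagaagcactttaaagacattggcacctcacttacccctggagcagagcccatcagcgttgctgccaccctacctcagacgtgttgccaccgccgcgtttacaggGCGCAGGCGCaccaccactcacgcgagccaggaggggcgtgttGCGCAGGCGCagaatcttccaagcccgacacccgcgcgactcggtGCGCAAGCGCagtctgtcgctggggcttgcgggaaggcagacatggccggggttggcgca
Sdhb: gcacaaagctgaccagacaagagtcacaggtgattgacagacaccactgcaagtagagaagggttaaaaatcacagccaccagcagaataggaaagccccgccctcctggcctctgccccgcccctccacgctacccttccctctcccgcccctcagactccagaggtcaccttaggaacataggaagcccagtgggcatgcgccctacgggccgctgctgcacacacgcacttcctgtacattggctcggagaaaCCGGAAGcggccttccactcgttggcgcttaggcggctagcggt
Ndufv2: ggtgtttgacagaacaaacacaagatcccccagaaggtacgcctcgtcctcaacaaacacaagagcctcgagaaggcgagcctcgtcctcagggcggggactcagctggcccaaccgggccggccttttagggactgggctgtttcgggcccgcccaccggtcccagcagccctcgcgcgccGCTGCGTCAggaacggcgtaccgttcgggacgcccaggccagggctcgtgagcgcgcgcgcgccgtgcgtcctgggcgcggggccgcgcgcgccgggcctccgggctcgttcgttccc
Ndufa10: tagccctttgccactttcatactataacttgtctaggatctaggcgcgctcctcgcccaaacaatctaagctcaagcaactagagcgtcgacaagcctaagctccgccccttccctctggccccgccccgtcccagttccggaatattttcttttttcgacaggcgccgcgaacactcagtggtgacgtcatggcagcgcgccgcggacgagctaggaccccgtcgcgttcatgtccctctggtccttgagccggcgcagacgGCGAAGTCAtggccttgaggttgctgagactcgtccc

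The Sdha window held 3 matches to the nuclear respiratory factor 1 motif, whose first bases lie at positions -98, -55 and -10 from the gene start. The Sdhb window held 1 ETS match, from base 7 after the start. Ndufv2 and Ndufa10 each held 1 match to the antioxidant response element core, written on the opposite strand as GCTGCGTCA from position -68 in Ndufv2 and as GCGAAGTCA from base 14 after the start in Ndufa10. Windows were found for 29 of the 39 members (30 windows). Of these genes 6 (20.7%) held the nuclear respiratory factor 1 motif, against 4.6% of 32851 windows of all genes, and 6 (20.7%) held the ETS motif, against 8.86%. The ERR motif was in 1 (3.45%, against 0.423%) and the antioxidant response element core in 5 (17.2%, against 12.4%), namely Cox5b, Ndufa1, Ndufa9, Ndufa10 and Ndufv2. The shares of members count genes and the others count windows, and the windows of all genes were not matched for GC content. A match describes letters only, and binding was not measured here.

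Complex II held both of the members with the most negative differences. Sdha encodes the flavoprotein subunit that oxidises succinate. Its levels were 3.07, 3.39 and 3.30 on sMaf CKO arrays 1, 2 and 3, against 4.08, 3.91 and 4.06 on control arrays 1, 2 and 3. All sMaf CKO arrays lay below every control array, and control arrays lay close together (SD 0.09, n = 3, against 0.16 among sMaf CKO arrays). The difference was -0.76 (SE 0.20, 95% interval -1.24 to -0.28, limma adjusted p = 0.151), that is 59.0% of the control level, and -0.76 within slide 1 and -0.75 within slide 2. It did not pass with slide as a block (limma adjusted p = 0.114). A second probe for Sdha gave -0.54.

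Sdhb encodes the iron-sulfur subunit next to Sdha. It read 4.38, 4.54 and 4.57 on sMaf CKO arrays, against 5.66, 4.78 and 5.10 on control arrays. The groups did not overlap, though control array 2 lay near the highest sMaf CKO array. The difference was -0.68 (SE 0.27, 95% interval -1.31 to -0.06, limma adjusted p = 0.266), with -0.76 within slide 1 and -0.53 within slide 2. Sdhc and Sdhd encode the membrane anchor of the complex. Sdhc read 3.62, 4.03 and 3.78 in sMaf CKO liver, against 4.35, 3.84 and 4.09 in control liver. These arrays overlapped (difference -0.28, SE 0.23, adjusted p = 0.579). Sdhd read 5.02, 5.75 and 5.75 in sMaf CKO liver, against 5.64, 5.71 and 5.57 in control liver. Here sMaf CKO array 1 was low and the other two were the highest of all (difference -0.13, adjusted p = 0.832), and the sign was positive without sMaf CKO array 1 (0.11), under quantile normalization (0.20) and within slide 2 (0.18).

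The catalytic subunits Sdha and Sdhb thus had more negative differences than the anchor subunits, a contrast noticed in the values and not tested. Over the 4 genes the median was -0.48, the lowest of the 4 complexes that hold members, and it was -0.52 within slide 1, -0.42 within slide 2, -0.24 under quantile normalization, -0.16 on spike-in scaling and -0.40 without sMaf CKO array 1. It kept its sign in each of these. Set against complex I on the same array, which removes any scaling of the whole array, the mean difference of complex II was 0.02, -0.13 and -0.42 on sMaf CKO arrays 1, 2 and 3, and 0.09, 0.04 and -0.13 on control arrays. These values overlapped between genotypes. Set likewise against the median of the other 38 members, Sdha lay at -0.20, -0.47 and -0.81 on sMaf CKO arrays, against -0.07, 0.12 and -0.07 on control arrays. All 3 sMaf CKO arrays were thus below all 3 control arrays on this within-array scale too. In Ndufs4, Ndufa8, Cox5b and Cox7a2 the opposite held on this scale, with every sMaf CKO array above every control array. Cox7a2 lay at 0.24, 0.28 and 0.55 on sMaf CKO arrays, against -0.17, 0.01 and 0.15 on control arrays. The share of all genes tested without overlap on this scale was not counted, so Sdha is not set apart by it. The relative value of Sdhb, -0.05, -0.48 and -0.71 against 0.35, -0.18 and -0.19, overlapped between genotypes.

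**Figure D4:**
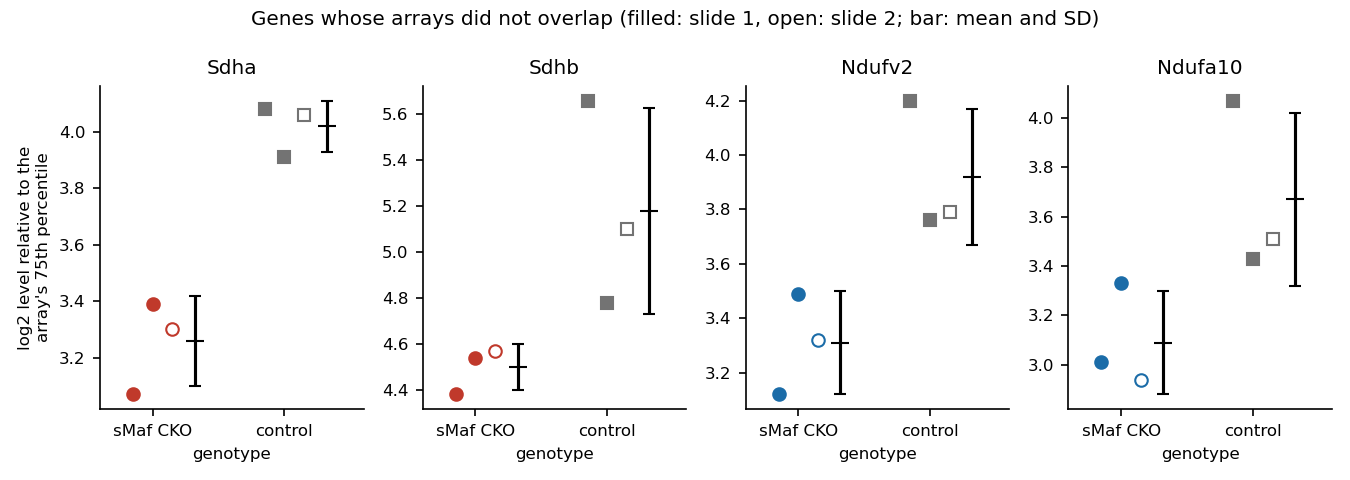
Log2 level above the 75th percentile of its array (y axis) by genotype (x axis) for Sdha, Sdhb, Ndufv2 and Ndufa10, 1 point an array (filled on slide 1, open on slide 2), with the mean and SD of 3 arrays as a bar and each panel on its own range. In each panel every sMaf CKO point lies below every control point, by the widest margin in Sdha (3.39 against 3.91).

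Complex I gave 20 negative and 1 positive difference among 21 members, with a median of -0.28 that was 0.02 under quantile normalization, 0.04 on spike-in scaling and 0.00 within slide 2. Ndufv2, an iron-sulfur subunit of the NADH-oxidising module, read 3.12, 3.49 and 3.32 on sMaf CKO arrays, against 4.20, 3.76 and 3.79 on control arrays. The groups did not overlap, and the difference was -0.61 (SE 0.23, 95% interval -1.14 to -0.07, limma adjusted p = 0.250), with -0.67 within slide 1 and -0.47 within slide 2. Ndufa10, an accessory subunit of the membrane arm, read 3.01, 3.33 and 2.94 on sMaf CKO arrays, against 4.07, 3.43 and 3.51 on control arrays. The gap between the groups was narrow, between sMaf CKO array 2 and control array 2, and the difference was -0.57 (SE 0.25, 95% interval -1.17 to 0.02, adjusted p = 0.309), with -0.58 within slide 1 and -0.57 within slide 2. Ndufa10 was the single member whose lowest level was on sMaf CKO array 3. On the scale set against the other members of the same array both genes overlapped between genotypes, with sMaf CKO array 1 at -0.05 for Ndufv2 and 0.09 for Ndufa10.

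The other core subunits of complex I, which carry the flavin and iron-sulfur centres or frame them, all overlapped between genotypes. Ndufv1, which binds NADH and the flavin, read 5.46, 6.03 and 6.34 in sMaf CKO liver, against 6.64, 5.97 and 6.39 in control liver (difference -0.39, SE 0.30, adjusted p = 0.545). The gap lay between the 2 arrays numbered 1, while within slide 2 the difference was -0.05. Ndufs1, the largest iron-sulfur subunit, read 4.48, 4.82 and 5.06 in sMaf CKO liver, against 4.96, 5.11 and 5.30 in control liver (difference -0.34, SE 0.23, adjusted p = 0.507). Every array of sMaf CKO liver lay below the control array of the same slide and number, but array 3 of sMaf CKO lay above control array 1. Ndufs8, an iron-sulfur subunit of the arm that hands electrons to ubiquinone, read 1.48, 1.84 and 2.07 in sMaf CKO liver, against 2.40, 2.08 and 2.02 in control liver (difference -0.37, SE 0.24, adjusted p = 0.474). Ndufs7, its neighbour near the ubiquinone site, differed by -0.22 (SE 0.31) and Ndufs3, a subunit of the same arm without an iron-sulfur centre, by -0.28 (SE 0.27). Both were close to control within slide 2, at 0.01 and 0.09. Over these 6 core subunits, Ndufv2 included, the median was -0.35, and over the 14 accessory subunits, without Ndufa4, it was -0.27. Within slide 2 these medians were -0.02 and 0.00.

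Accessory subunits of complex I surround the core and steady it. Ndufb9 read 6.75, 7.42 and 7.83 in sMaf CKO liver, against 7.94, 7.29 and 7.97 in control liver, and Ndufb10 differed by -0.42 (SE 0.32, adjusted p = 0.544). In Ndufb9 (difference -0.40, SE 0.34, adjusted p = 0.582) sMaf CKO array 1 was the low point and sMaf CKO array 2 lay above control array 2. Ndufs4, an accessory subunit whose loss causes complex I deficiency in mice and people, read 4.90, 5.19 and 5.51 in sMaf CKO liver, against 5.22, 5.02 and 5.33 in control liver. The groups overlapped around a difference of 0.01 (SE 0.24, 95% interval -0.54 to 0.56, adjusted p = 0.986), with -0.07 within slide 1 and 0.19 within slide 2. Ndufa1 and Ndufa8 had 2 probes each, which gave -0.20 and -0.34 for Ndufa1 and -0.12 and -0.16 for Ndufa8. The other accessory members lay between -0.30 and -0.12: Ndufb5 and Ndufa2 at -0.30 each, Ndufb8 at -0.29, Ndufa9 at -0.28, Ndufa6 at -0.27, Ndufb3 at -0.23, Ndufb6 at -0.18 and Ndufa5 at -0.12. Their adjusted p-values in limma's test lay between 0.587 for Ndufb5 and 0.890 for Ndufa5. Ndufa4, named for complex I but now counted as a subunit of complex IV, read 5.74, 6.30 and 6.71 in sMaf CKO liver, against 6.52, 6.22 and 6.71 in control liver (difference -0.23, SE 0.30), and the 2 arrays of slide 2 were equal to 2 decimals.

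Iron-sulfur clusters are built in the mitochondrion and sit in subunits of complexes I, II and III. The 7 members that carry them (Ndufs1, Ndufs7, Ndufs8, Ndufv1, Ndufv2, Sdhb and Uqcrfs1), a grouping made after the values were seen, were all negative, with a median of -0.39 against -0.26 over the other 32 members. Their mean difference from control was -0.77, -0.33 and -0.20 on sMaf CKO arrays 1, 2 and 3, and 0.22, -0.23 and 0.01 on control arrays, while the other 32 members stood at -0.71, -0.13 and 0.09, and at 0.09, -0.20 and 0.11. Under quantile normalization 5 of the 7 were negative (median -0.08) and 10 of the 32 (median 0.10). Without sMaf CKO array 1 the medians were -0.22 over the 7 and 0.01 over the 32. No test of this difference was made, because the grouping was made with the values known.

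All 6 members of complex III, which moves electrons from ubiquinol to cytochrome c, had negative differences (median -0.33, but 0.03 under quantile normalization and 0.00 on spike-in scaling), and all 6 overlapped between genotypes. Uqcrfs1, the Rieske iron-sulfur protein, read 5.21, 5.74 and 5.79 on sMaf CKO arrays, against 6.26, 5.76 and 6.04 on control arrays. The overlap was small, as control array 2 lay just below sMaf CKO array 3 (difference -0.44, SE 0.25, 95% interval -1.03 to 0.16, limma adjusted p = 0.428). Cyc1, the haem protein that reduces cytochrome c, read 5.03, 5.69 and 5.70 in sMaf CKO liver, against 6.17, 5.62 and 5.76 in control liver (difference -0.38, SE 0.28, adjusted p = 0.525). Its difference was -0.53 within slide 1 and -0.06 within slide 2. Uqcrq, a small structural subunit, read 7.28, 7.73 and 8.31 in sMaf CKO liver, against 8.32, 7.91 and 8.33 in control liver, with a difference of -0.42 (SE 0.30) that was -0.61 within slide 1 and -0.03 within slide 2. Uqcrc1 and Uqcrc2, the core proteins related to processing peptidases, differed by -0.25 (SE 0.35, with -0.36 by a second probe for Uqcrc1) and -0.28 (SE 0.24). Uqcrb, which sits near a ubiquinone site, differed by -0.06 (SE 0.26, adjusted p = 0.931).

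Cycs, the mobile carrier between complexes III and IV and a trigger of apoptosis once in the cytosol, read 4.87, 5.37 and 5.20 on sMaf CKO arrays, against 5.09, 5.32 and 5.03 on control arrays. The groups overlapped fully, sMaf CKO array 1 being lowest and sMaf CKO array 2 highest. The difference was 0.00 (SE 0.23, 95% interval -0.53 to 0.53, unadjusted p = 0.998), with -0.09 within slide 1 and 0.17 within slide 2. Its 2 other probes gave -0.17 and -0.21.

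Complex IV, cytochrome c oxidase, had the median nearest to 0 among the 4 complexes, at -0.18, with 6 members negative and 1 positive, and the median was positive under quantile normalization (0.17), on spike-in scaling (0.15), within slide 2 (0.04) and without sMaf CKO array 1 (0.12). Cox7a2, a liver form of a small subunit, read 5.52, 6.14 and 6.67 on sMaf CKO arrays, against 5.99, 5.81 and 6.28 on control arrays. The sMaf CKO arrays held both the lowest and the highest value (difference 0.08, SE 0.32, 95% interval -0.66 to 0.83, limma adjusted p = 0.921), and a second probe gave 0.09. Cox8a, the smallest subunit, read 6.50, 7.10 and 7.65 in sMaf CKO liver, against 7.37, 6.91 and 7.42 in control liver, and it too spanned the control range (difference -0.15, SE 0.33). Cox5a, a regulatory subunit, had the most negative difference of the complex at -0.43 (SE 0.29, adjusted p = 0.499), with 6.42, 6.97 and 7.28 in sMaf CKO liver, against 7.58, 6.96 and 7.42 in control liver. Cox4i1, a regulatory subunit early in assembly, differed by -0.24 (SE 0.30), Cox6c by -0.26 (SE 0.30), Cox7b by -0.18 (SE 0.35) and Cox5b, which binds zinc, by -0.07 (SE 0.29). Averaged over the 7 members, sMaf CKO arrays 1, 2 and 3 stood at -0.72, -0.14 and 0.33, and control arrays at 0.05, -0.26 and 0.21, so sMaf CKO liver held both ends of the range.

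**Figure D5:**
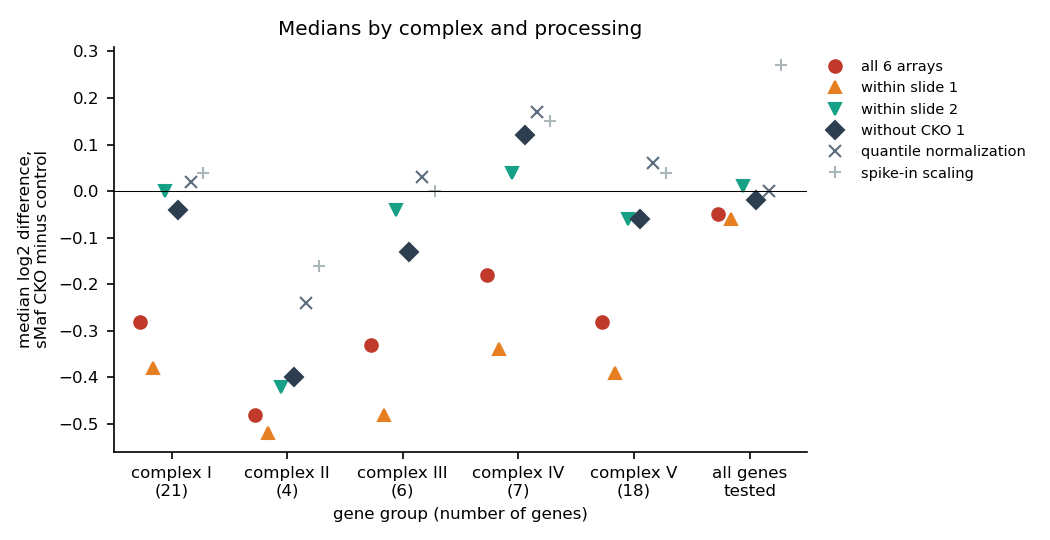
Median log2 difference (y axis, sMaf CKO minus control) over the genes of each complex and over all genes tested (x axis, with the number of genes), for all 6 arrays and for 5 other ways of taking the values, 1 symbol each. The complex II symbols lie between -0.52 and -0.16, whereas in complexes I, III and IV symbols lie on both sides of 0.

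Complex V, none of whose genes is a member, was read in the same way. Of 18 tested genes 0 passed (0 with an unadjusted p below 0.05, against 16.8% of all genes tested in either direction), 17 had negative differences, and the median of -0.28 was 0.06 under quantile normalization and 0.04 on spike-in scaling. The mean difference was -0.71, -0.19 and 0.10 on sMaf CKO arrays 1, 2 and 3, and 0.12, -0.21 and 0.09 on control arrays. The smallest p-values belonged to Atp5g1 (-0.56, SE 0.29, adjusted p = 0.385), which encodes the membrane ring subunit, and Atp5b (-0.43, SE 0.26, adjusted p = 0.441), the catalytic beta subunit. Atpif1, the inhibitor of the ATP synthase, named after its value was seen, was the positive one (0.28, SE 0.25, adjusted p = 0.602).

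Further subunits of the other complexes lie outside the 39. In complex I, 0 of 16 other tested subunits passed and all 16 were negative (median -0.23, but 0.09 under quantile normalization). Ndufc2, an accessory subunit of the membrane arm, differed by -0.39 (SE 0.26, limma adjusted p = 0.490). In complex III, 0 of 3 passed, with Uqcr11 at -0.45 and Uqcrh at -0.30. In complex IV, 0 of 8 passed, and the 2 with the smallest p were forms known from muscle and testis. Cox6a2, the muscle form, read -2.59, -2.68 and -2.30 in sMaf CKO liver, against -3.03, -4.15 and -3.32 in control liver (difference 0.98, SE 0.32, adjusted p = 0.202). Cox6b2, the testis form, read -0.96, -1.44 and -0.72 in sMaf CKO liver, against -2.11, -1.79 and -1.50 in control liver (difference 0.76, SE 0.27, adjusted p = 0.235). In both the groups did not overlap, with the sMaf CKO arrays higher (11.3% of all genes tested did so), and the sign held within both slides and under quantile normalization. For the 13 subunits encoded by mitochondrial DNA no probe was matched by name, so they were not analysed here.

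Assembly factors, which build the complexes without staying in them, gave 0 of 39 tested genes past limma's threshold. At an unadjusted p below 0.05 there was 1, beside 16.8% of all genes tested. Of the 39, 29 were negative and 10 positive (median -0.16, 0.16 on spike-in scaling). Tmem126b, an assembly factor of complex I, differed by -0.48 (SE 0.20, adjusted p = 0.276) and Ndufaf1 by -0.48 (SE 0.22). Among 12 tested enzymes of the citric acid cycle 0 passed (3 with an unadjusted p below 0.05, beside the same 16.8%). Of the 12, 10 were negative, with a median of -0.27 (0.06 on spike-in scaling). The brightest group, which held 8 of the 12, had a median of -0.25. Idh3b, a subunit of isocitrate dehydrogenase, read 3.72, 4.04 and 3.71 in sMaf CKO liver, against 4.73, 4.28 and 4.37 in control liver (difference -0.63, SE 0.23, adjusted p = 0.235). Suclg2, a subunit of the enzyme that makes succinate from succinyl-CoA, one step before complex II, differed by -0.58 (SE 0.23, adjusted p = 0.274), and by -1.14 by a second probe. In both genes every sMaf CKO array was below every control array, as in 11.6% of all genes tested and 18.9% of the brightest group. Their sign was the same after quantile normalization and on spike-in scaling. Among 11 carriers and channels of the mitochondrial membranes 0 passed (1 with an unadjusted p below 0.05, beside the same 16.8%). Slc25a4, an ADP/ATP carrier typical of muscle and heart, differed by 0.60 (SE 0.25, adjusted p = 0.278; 1.58 by a second probe) and Slc25a1, the citrate carrier, by -0.60 (SE 0.27, adjusted p = 0.314), while Slc25a5, the ADP/ATP carrier common in other tissues, differed by -0.53 (SE 0.25, chosen after its value was seen).

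Of 16 tested regulators of mitochondrial genes 0 passed. Those with an unadjusted p below 0.05 were 3 of 16, beside the 16.8% of all genes tested. Ppara, the fatty acid receptor that drives oxidation genes in liver, read 2.94, 3.21 and 3.49 on sMaf CKO arrays, against 4.15, 4.05 and 4.52 on control arrays. Every sMaf CKO array was lower than every control array, as in 11.6% of all genes tested and 18.9% of the brightest group, where Ppara lay. The difference was -1.03 (SE 0.25, adjusted p = 0.116), with -1.03 within slide 1 and -1.03 within slide 2. Ppargc1b, a coactivator of mitochondrial genes, read 1.23, 1.94 and 1.96 in sMaf CKO liver, against 3.08, 2.35 and 3.43 in control liver (difference -1.24, SE 0.34, adjusted p = 0.156). Its relative Ppargc1a, which was chosen after its value was seen, read 1.33, 2.11 and 0.37 in sMaf CKO liver, against 2.45, 2.73 and 2.53 in control liver (difference -1.30, SE 0.42, adjusted p = 0.195). This difference rested in part on array 3 and on the probe, being -0.87 within slide 1, -2.16 within slide 2, -0.85 without sMaf CKO array 3 and -0.39 by a second probe, while a second probe for Ppargc1b gave -1.31. By the probes used, all 3 stayed negative when arrays were quantile normalized or scaled on spike-ins. Nrf1 (nuclear respiratory factor 1), Gabpa and Esrra, whose motifs were searched above, differed by -0.17, -0.38 and -0.20, with arrays that overlapped and positive values on spike-in scaling for Nrf1 (0.15) and Esrra (0.13), and the probes of Gabpa disagreed in sign. Tfam, the packaging factor of mitochondrial DNA, read 3.21, 3.40 and 3.46 in sMaf CKO liver, against 3.55, 3.65 and 3.54 in control liver (difference -0.23, SE 0.20, adjusted p = 0.598; 0.10 on spike-in scaling; -0.50 by a second probe).

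Whole liver was measured, so fewer cells of a type and less RNA per cell cannot be told apart in these values. Of 12 tested hepatocyte markers 11 were negative, with a median of -0.45 (-0.21 under quantile normalization, -0.12 on spike-in scaling, -0.19 within slide 2). The 1 call among them was Tdo2 (-1.86, limma adjusted p = 0.0382), where 0.157% of all genes tested were called as lower. The summed signal of the 12 markers, in multiples of the 75th percentile, was 1420 to 2400 in sMaf CKO liver, against 2210 to 2600 in control liver. That of the 39 subunits was 1630 to 3080 in sMaf CKO liver, against 2330 to 3090 in control liver. All 13 tested macrophage markers were positive, with a median of 0.82. Trem2 and Gpnmb were the 2 calls, where 0.385% of all genes tested were called as higher. No control array had Gpnmb well above background. It passed the filter of at least 3 arrays through sMaf CKO liver alone. The summed macrophage signal was 185 to 419 on sMaf CKO arrays, against 80.2 to 133 on control arrays. Those sums rested mostly on Marco and Cd5l, so they do not measure the number of macrophages. Marco read 7.69, 6.45 and 5.31 on sMaf CKO arrays, against 3.30, 3.74 and 1.23 on control arrays. The 7 markers of bile duct cells, the 12 of endothelial and stellate cells, the 9 tested of lymphocytes and neutrophils and the 5 tested of erythroid cells had medians of 0.30, 0.31, 0.20 and 0.54 and 0 calls. The summed bile duct signal was 50.2, 11.4 and 18.1 on sMaf CKO arrays, against 9.93, 11.7 and 12.3 on control arrays. These sums rested mostly on Spp1 alone, so they do not measure the number of bile duct cells. Spp1 read 5.58, 3.29 and 3.97 on sMaf CKO arrays, against 2.99, 3.34 and 3.42 on control arrays (difference 1.03, SE 0.54). The part of any of these cell types in the subunit values was not tested.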

How the data were processed

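Liver RNA from 3 sMaf CKO and 3 control samples, grouped by the genotype in the labels, was profiled on one-colour Agilent arrays. Per the file headers, the authors extracted spot intensities with Agilent Feature Extraction 10.7.3.1 (protocol GE1_107_Sep09, design build mm9); the deposited intensity is background-subtracted and detrended within an array. The authors also deposited a table of log2 values with no stated processing. Compared here with the scanner intensities, it matched log2 processed intensity less the array's 75th percentile, with the probe's median over arrays subtracted (r = 1 on each array over 21012 genes, 99% of values within 0.0107). Its column medians lay between -0.11 and 0.09.

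Outlier spots and control spots were left out, spots of a probe were averaged as log2, and the 75th percentile was subtracted. Probes well above background on at least 3 arrays were kept (27859 of 41174). Accessions matched 26690 probes to 1 symbol each in the RefSeq table of GRCm38.p6, which is also the source of the promoter sequences; 14484 stayed unmatched and were tested by accession. The probe with the highest mean was used for a gene; 33 members had 1 kept probe and 6 had several. No member had a value left out, and no probe was saturated. Precision is limited by the number of arrays.

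With genotype as the only term, limma 3.58.1 (lmFit, eBayes; R 4.3.3) was fitted to all 21059 genes, with Benjamini-Hochberg adjustment over all of them and a threshold of 0.05. The procedure was tested on simulated data. Every member is named. From each other pathway list, genes past the threshold or else the 2 with the smallest p are named, except where the text says a gene was chosen after its value was seen or cites it for a motif or role. One gene that this rule names is not reported here. The members and lists were chosen with earlier results of these data known. Alternatives were normexp background correction (offset 50, on median spot signals), quantile normalization, median scaling, scaling on 5 bright spike-in probes, the authors' deposited log2 table, stricter and no filtering of dim probes, averaging the probes of a gene, replicate and slide blocks, fits within slides, trend and robust eBayes, and each array left out in turn.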

Additional observations from a re-analysis of the deposited data

How the results depend on the processing

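No member passed limma's test under any of the 18 alternatives that give a test (adjusted p for Sdha as low as 0.0895), and 10 members (Ndufa10, Ndufb10, Ndufs1, Ndufv2, Sdha, Sdhb, Uqcrfs1, Uqcrq, Cyc1 and Cox5a) kept a negative difference under all 19 alternatives. The alternatives draw on the same arrays. The share of all genes tested that kept a sign was not counted, so the 10 are not read as a result about the members. The number of all genes called was 114, against 74 with normexp background correction, 22 with quantile normalization, 252 with median scaling, 13 on spike-in scaling, 267 for probes above background on all 6 arrays, 1 with no filter, 340 with slide as a block, 308 with trend and robust eBayes and 196 within slide 1. Leaving out 1 array at a time gave between 3 (without sMaf CKO array 1) and 294 (without sMaf CKO array 3) genes called. The replicate numbers were not shown to pair the arrays, since deviations of same-numbered arrays correlated at 0.063, 0.166 and 0.424 and sMaf CKO array 1 correlated best with control array 2 (0.292); with the replicate block 291 genes were called, among them 0 members.

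The number of members without overlap was 4 (22.9% of all genes), 7 with quantile normalization (25.6%), 1 on spike-in scaling (11.6%) and 11 within slide 1 (47.1%), and between 5 and 15 with 1 array left out (29.7% to 39.5% of all genes; 11 members without sMaf CKO array 3, where 39.5% of genes did so, and 15 without control array 2, where 36.9% did). With fewer arrays more genes do not overlap, so these counts are read only against the share in the same setting. Blocks and trend leave the levels as they are. The count of negative members was 15 with quantile normalization, 13 on spike-in scaling and 17 within slide 2, and lay between 20 (without sMaf CKO array 1) and 39 with 1 array left out. The medians were -0.24 in complex II, 0.03 in complex III and 0.06 in complex V with quantile normalization. On spike-in scaling they were 0.05 over all members, 0.04 in complex I, -0.16 in complex II, 0.00 in complex III and 0.04 in complex V. The cause was not tested.

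Single members changed sign as follows. Ndufs4 was at -0.01 with median scaling and -0.02 with normexp. Within slide 1, Ndufs4 and Cox7a2 were both at -0.07. With quantile normalization the values were Ndufa1 0.20, Ndufa4 0.14, Ndufa5 0.25, Ndufa8 0.18, Ndufa9 0.03, Ndufb3 0.02, Ndufb6 0.11, Ndufb8 0.10, Ndufb9 0.02, Ndufs7 0.05, Ndufv1 0.01, Sdhd 0.20, Uqcrc1 0.08, Uqcrc2 0.12, Uqcrb 0.20, Cox4i1 0.17, Cox5b 0.31, Cox6c 0.14, Cox7b 0.11 and Cox8a 0.25. On spike-in scaling they were Ndufa1 0.13, Ndufa2 0.03, Ndufa4 0.09, Ndufa5 0.21, Ndufa6 0.06, Ndufa8 0.20, Ndufa9 0.04, Ndufb3 0.10, Ndufb5 0.02, Ndufb6 0.14, Ndufb8 0.04, Ndufs3 0.05, Ndufs7 0.10, Sdhc 0.04, Sdhd 0.19, Uqcrc1 0.07, Uqcrc2 0.04, Uqcrb 0.27, Cox4i1 0.08, Cox5b 0.26, Cox6c 0.07, Cox7b 0.15 and Cox8a 0.18. Within slide 2 they were Ndufa1 0.05, Ndufa8 0.23, Ndufb3 0.07, Ndufs3 0.09, Ndufs7 0.01, Ndufs8 0.05, Sdhd 0.18, Uqcrc1 0.10, Uqcrb 0.07, Cox5b 0.26, Cox6c 0.04, Cox7b 0.01 and Cox8a 0.23. With 1 array left out, the ranges were Ndufs4 between -0.14 and 0.16, Uqcrb between -0.18 and 0.14, Cox7a2 between -0.19 and 0.38, Ndufa5 between -0.39 and 0.17, Cox5b between -0.30 and 0.18, Cox7b between -0.48 and 0.12, Ndufa1 between -0.44 and 0.08, Ndufa2 between -0.52 and 0.02, Ndufa4 between -0.46 and 0.02, Ndufa8 between -0.30 and 0.14, Ndufb3 between -0.48 and 0.03, Ndufs7 between -0.44 and 0.07, Sdhd between -0.26 and 0.11, Uqcrc1 between -0.45 and 0.08, Cox4i1 between -0.47 and 0.01, Cox6c between -0.50 and 0.02 and Cox8a between -0.43 and 0.15. With 3 arrays a genotype, differences under about 0.65 (log2) lay within the 95% interval of the typical member.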
